A study of Mus musculus with 16 samples.

Results

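Fat breakdown in the adipocyte was followed through 6 genes: the lipases and esterases Lipe, Pnpla2, Mgll and Ces1d, and the hormone receptors Adrb3 and Npr3. All probe sets whose single gene symbol was one of these were taken, which gave 9 of the 12488 probe sets on the array and 5 of the 6 genes. Adrb3 had no probe set under its symbol in the annotation used and was not analysed here. Lipe and Pnpla2 had 1 probe set each, Mgll and Ces1d had 2 each, and Npr3 had 3. Each gene was represented by its brightest probe set on average (mean log2 signal), and 7 of the 9 probe sets, among them all 5 so chosen, lay above the filter on low signals that left 5686 genes for testing.

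The arrays carried RNA from retroperitoneal fat, a visceral depot, of gonadectomised (GDX) mice. In each sex 6 arrays came from GDX mice given 0.1 mg of dihydrotestosterone (DHT), a potent androgen, under the skin 1, 3, 6, 12, 18 or 24 h before necropsy, with 1 array at each time, and 2 arrays came from GDX mice given vehicle. The design asks how androgen acts on fat of either sex. The groups used were therefore female GDX with DHT (6 arrays), male GDX with DHT (6 arrays), female GDX with vehicle (2 arrays) and male GDX with vehicle (2 arrays). All groups shared the gonadectomy, so none had intact gonads, and a sex difference here is one between gonadectomised females and gonadectomised males. The label of the vehicle arrays gives 24 h, and strain and age are not given in the sources used here. Fat of all the mice in a group was collected, so an array may hold RNA of several animals. Arrays of different DHT times stem from different animals, since each time ended in necropsy. The sources do not say whether the 2 vehicle arrays of a sex do. If they do not, the spread between those 2 arrays may be technical only.

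Triglyceride in the lipid droplet is broken down in steps. Pnpla2 encodes adipose triglyceride lipase, which removes the first fatty acid. Lipe encodes hormone-sensitive lipase, which acts mainly on the resulting diglyceride, and Mgll encodes monoglyceride lipase, which frees glycerol. Ces1d encodes a carboxylesterase that hydrolyses triglyceride in liver and fat. Catecholamines start lipolysis through beta-adrenergic receptors and cyclic AMP, natriuretic peptides start it in human fat through cyclic GMP, and Npr3 encodes the clearance receptor that removes natriuretic peptides from the circulation.

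The agent injected acts through the androgen receptor, so the 250 bases before the annotated start are shown for 4 genes, to let their promoters be set beside the signals. The sequences are RefSeq's for the assembly GRCm38.p6, read on the gene's strand. Capitals mark the hexamer AGAACA or its reverse complement TGTTCT, which is 1 arm of an androgen response element, and the GC box GGGCGG or its reverse complement CCGCCC, to which Sp1-type factors bind. In Lipe, 2 of the GC boxes overlap each other. The positions on the gene's strand were chr7:25395988-25396237 (minus strand) for Lipe, chr7:141454938-141455187 (plus strand) for Pnpla2, chr6:88724162-88724411 (plus strand) for Mgll and chr15:11907372-11907621 (minus strand) for Npr3.
Lipe: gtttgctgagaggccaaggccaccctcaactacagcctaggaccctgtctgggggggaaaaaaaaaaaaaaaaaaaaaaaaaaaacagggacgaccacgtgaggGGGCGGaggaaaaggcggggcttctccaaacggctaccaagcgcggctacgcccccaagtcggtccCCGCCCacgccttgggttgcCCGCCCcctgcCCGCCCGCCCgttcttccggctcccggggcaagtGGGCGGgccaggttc
Pnpla2: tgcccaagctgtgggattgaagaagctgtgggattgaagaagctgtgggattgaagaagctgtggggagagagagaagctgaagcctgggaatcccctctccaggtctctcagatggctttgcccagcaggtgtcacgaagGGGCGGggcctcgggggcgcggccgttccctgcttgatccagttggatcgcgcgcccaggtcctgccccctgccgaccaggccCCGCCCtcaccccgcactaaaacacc
Mgll: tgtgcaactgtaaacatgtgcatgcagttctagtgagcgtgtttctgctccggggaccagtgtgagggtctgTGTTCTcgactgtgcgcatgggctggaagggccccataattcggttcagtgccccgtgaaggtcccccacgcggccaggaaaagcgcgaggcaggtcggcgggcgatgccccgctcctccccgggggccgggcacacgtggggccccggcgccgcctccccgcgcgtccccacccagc
Npr3: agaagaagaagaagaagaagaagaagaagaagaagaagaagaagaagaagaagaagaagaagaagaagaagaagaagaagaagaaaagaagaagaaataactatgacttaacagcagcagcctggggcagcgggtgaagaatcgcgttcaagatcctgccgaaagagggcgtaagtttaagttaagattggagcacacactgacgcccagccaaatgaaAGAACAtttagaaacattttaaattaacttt

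Motifs were counted on both strands in windows of 300 bases, 250 before and 50 after the start. Lipe and Mgll had 2 such windows each, Pnpla2 and Npr3 had 1 each, and Ces1d was matched to none. The half-site AGAACA stood once in the window of Npr3, at base -31 from the start, and once in the first window of Mgll, at base -178, and in 19.0% of all 32851 windows. The whole androgen response element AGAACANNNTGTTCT stood in none of the 6 windows and in 0.0091% of all windows. GC boxes stood 6 times in the upstream window of Lipe, 2 times in that of Pnpla2 and once in each window of Mgll, and 35.7% of all windows held at least 1. The E-box CACGTG stood once in the upstream window of Lipe and once in the first of Mgll, against 7.15% of all windows. The cyclic AMP response element TGACGTCA, which 1.79% of all windows held, and the element AGGTCANAGGTCA of PPAR receptors, which 0.0396% held, stood in none of the 6. These are letter matches in short windows and do not show binding.

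One vehicle array stood apart before any comparison. On male vehicle replicate 2 the summed signal of 18 skeletal muscle genes was 372540, against 22058 to 54307 on the 8 female arrays and 42150.5 to 73212 on the other 7 male arrays. The summed signal of 13 adipocyte genes was 23338 on it, against 103635 to 145950 on the female arrays and 121016 to 171933 on the other male arrays. The 5 lipolysis genes had between 0.0238 and 0.174 of their mean on the other 7 male arrays there, with a median of 0.0516. The adipocyte genes had a median of 0.0931 (0.0115 to 2.54), the macrophage genes 0.306 and the skeletal muscle genes 9.08 (1.87 to 37.3). In bulk tissue, fewer cells of a type and less RNA per cell cannot be told apart. Every comparison below was therefore run on all 16 arrays and on the 15 without this one. Array medians lay between 184 and 220 on the common scale.

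**Figure D1:**
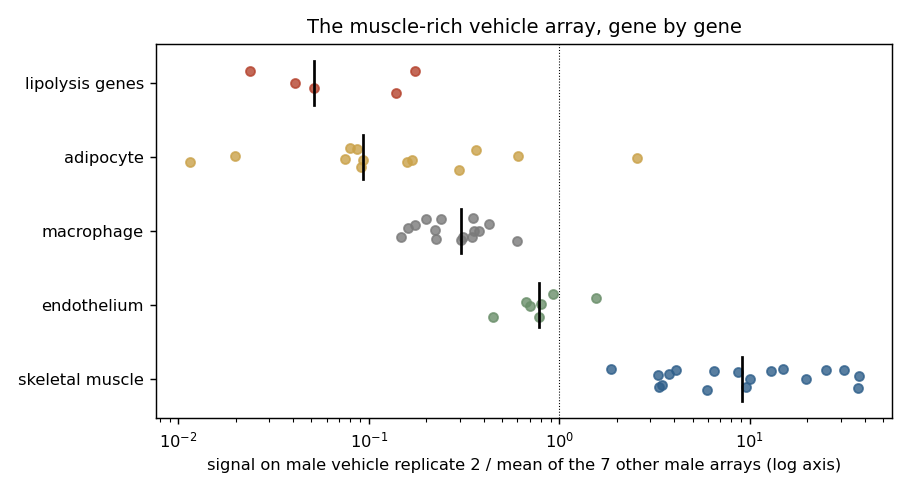
Signal on male vehicle replicate 2 over the mean of the 7 other male arrays (x axis, log scale), 1 point per gene, for the 5 lipolysis genes and 4 lists of cell type markers. Bars are medians and the dotted line is a ratio of 1. All 5 lipolysis genes lie at 0.174 or below, while all 18 skeletal muscle genes lie at 1.87 or above.

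Lipe, the hormone-sensitive lipase, was a bright gene with clearly separate levels in the sexes. In females its signal was 7878 and 5433 on the vehicle arrays, and 6539, 7844, 6661, 5585, 5355 and 6930.0 after DHT, in the order of the 6 times, 1 to 24 h. In males it was 12266 and, on the muscle-rich array, 464 with vehicle, and 9918, 12237, 12027, 9328, 11654 and 12335 at the same times. The highest female value lay below every male value other than that of the muscle-rich array. Lipe averaged 6528 ± 1014 in females (SD, n = 8) and 11395 ± 1243 in males without the muscle-rich array (SD, n = 7). Of the 6 female DHT arrays 5 lay between the 2 female vehicle values, and 5 of the 6 male DHT arrays lay below male vehicle replicate 1.

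Pnpla2, the adipose triglyceride lipase, had the tightest levels of the 5 genes within females relative to the mean, with an SD at 7.49% of it. In females it had 15944 and 15111 with vehicle, and 13647, 17134, 15317, 13925, 14501 and 14705 at the 6 rising times. In males it had 24886 and, on the muscle-rich array, 4268 with vehicle, then 20303, 28802, 24235, 21445, 25060.3 and 27095.5. No female value reached the lowest of the 7 other male values. Pnpla2 averaged 15035.5 ± 1126 in females (SD, n = 8) and 24547 ± 2964 in males without the muscle-rich array (SD, n = 7). In both sexes the lowest DHT value was at 1 h and the highest at 3 h.

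Mgll, the monoglyceride lipase, had the smallest sex difference. Its brighter probe set had 3040.5 and 4262 in females with vehicle, and 3017, 3729, 3227, 2604, 2509.9 and 3302 at the 6 times after DHT. In males it had 4439 and, on the muscle-rich array, 597 with vehicle, then 3530.2, 4884, 4096, 4049, 4090.4 and 5137. The sexes overlapped: 2 female arrays, vehicle replicate 2 and 3 h, lay above the lowest of the 7 other male arrays. The mean was 3212 ± 574 in females (SD, n = 8) and 4318 ± 548 in males without the muscle-rich array (SD, n = 7). The other Mgll probe set read 44.6 to 121 over all 16 arrays, under the filter at a signal of 116.03 on average, and the sexes overlapped there.

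Ces1d, the carboxylesterase, was measured by a pair of probe sets whose suffixes mark, for the brighter, few unique probes and, for the other, a family of similar sequences, so closely related carboxylesterases may add to the signal. The brighter probe set had 5914 and 4076 in females with vehicle, and 5164, 6166, 5036, 5356, 3849 and 6384 at the 6 times. In males it had 11808 and, on the muscle-rich array, 237 with vehicle, then 6471, 11353, 11136, 9190.2, 10601 and 9374. The highest female value, 6384 at 24 h, lay just under the lowest of the 7 other male values, 6471 at 1 h. The second probe set ranged over 2944 to 5653 in females and 6396 to 8207 in males without the muscle-rich array, and it did not overlap either. The mean of the first was 5243 ± 924 in females (SD, n = 8) and 9990.5 ± 1837 in males without the muscle-rich array (SD, n = 7).

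Npr3, the natriuretic peptide clearance receptor, had, by its brightest probe set, the largest log2 difference between the sexes of the 5 genes. Relative to the mean, that probe set also had the largest spread among females, with an SD at 41.1% of the mean. That probe set had 630.2 and 736 in females with vehicle, and 1049.9, 482, 764, 651, 1523 and 1329.7 at the 6 rising times. In males it had 1719.6 and, on the muscle-rich array, 117 with vehicle, then 2465, 2609, 2071, 1977, 2329 and 2718. The female arrays at 18 and 24 h came nearest to the males, but no female value reached the lowest of the 7 other male values. The mean was 896 ± 368 in females (SD, n = 8) and 2269.9 ± 362 in males without the muscle-rich array (SD, n = 7). By this probe set all 6 male DHT arrays lay above male vehicle replicate 1, and 4 of the 6 female DHT arrays lay above both female vehicle arrays. A second Npr3 probe set, whose suffix marks relaxed probe design rules, ranged over 243 to 565 in females and 291 to 735 in the 7 other males. The dimmest one ranged over 65.9 to 156 in females and 120.2 to 226 in those males. Both overlapped between the sexes, and their sex differences, given below, were smaller and not called. Of the 6 male DHT arrays, 4 by the second probe set and 2 by the dimmest lay above male vehicle replicate 1. By either of these probe sets 1 of the 6 female DHT arrays lay above both female vehicle arrays.

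**Figure D2:**
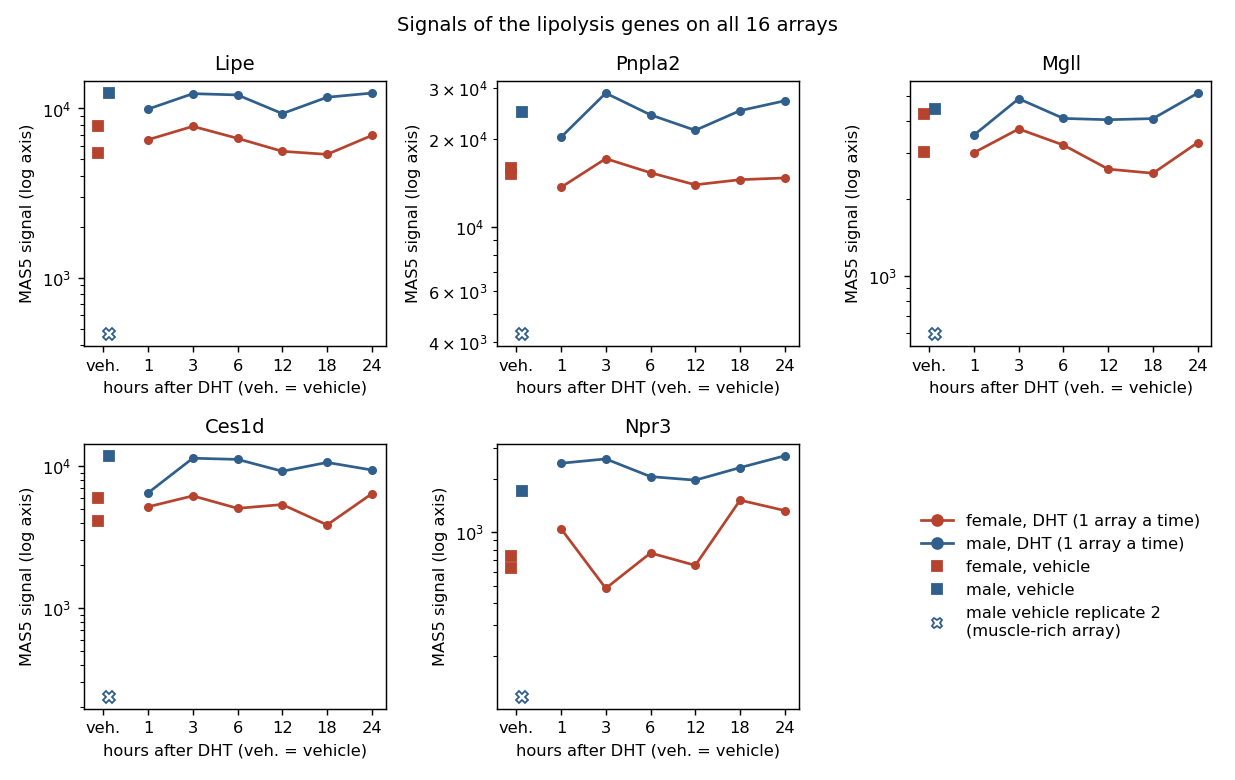
Signal of each gene's brightest probe set (y axis, log scale) on the vehicle arrays and at 1 to 24 h after DHT (x axis), 1 array per point, females in red and males in blue. The open cross is male vehicle replicate 2, which reads 464 for Lipe, and the female line lies under the male line at all 6 times in every panel.

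Female fat had less of all 5 transcripts than male fat once the muscle-rich array was left out. With 15 arrays the log2 difference, female minus male, was -0.71 ± 0.06 for Pnpla2 (limma's SE; adjusted p = 5.02e-06) and -0.82 ± 0.09 for Lipe (adjusted p = 9.06e-05). It was -0.45 ± 0.09 for Mgll (adjusted p = 0.00597), -0.93 ± 0.13 for Ces1d (adjusted p = 0.000520) and -1.36 ± 0.16 for Npr3 (adjusted p = 0.000145). As folds, the signal was 1.63 times lower in females for Pnpla2, 1.76 times for Lipe, 1.37 times for Mgll, 1.90 times for Ces1d and 2.57 times for Npr3. All 5 genes were called lower, against 7.76% of the 5686 genes called lower and 8.83% called higher in females. The 5 genes were chosen with earlier results of these data known, so the shares are a description and not a test. The median difference was -0.82 over the 5 genes and 0.0037 over all genes tested.

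The call depended on the muscle-rich array. With all 16 arrays the differences were -0.24 for Lipe, -0.39 for Pnpla2, -0.08 for Mgll, -0.26 for Ces1d and -0.90 for Npr3, and none was called (limma, adjusted p = 0.340 to 0.934). In that fit 1.13% of genes were called lower in females and 4.63% higher, and at an unadjusted p under 0.05 the count of members was also 0. The 12 DHT arrays, which hold no vehicle array, gave -0.80 for Lipe, -0.71 for Pnpla2, -0.49 for Mgll, -0.86 for Ces1d and -1.37 for Npr3, all called lower (adjusted p = 8.01e-05 to 0.00601), where 5.87% of genes were called lower.

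**Figure D3:**
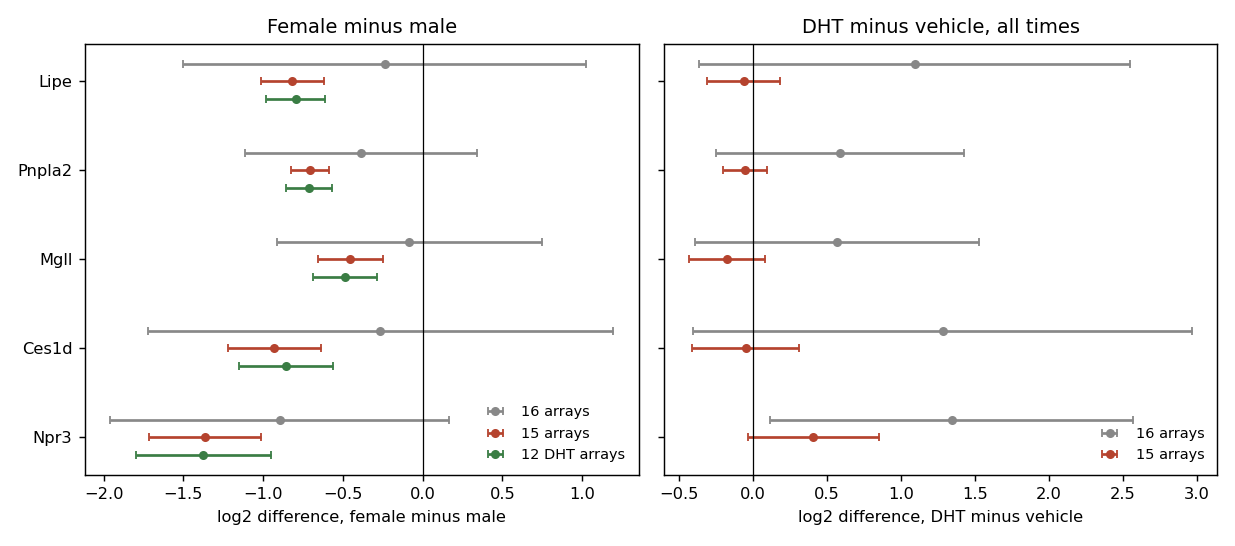
Fitted log2 differences with 95% confidence intervals for female minus male (left) and for DHT minus vehicle over all times (right), with 16 arrays in grey, 15 in red and the 12 DHT arrays in green. Without the muscle-rich array the 5 sex differences lie between -1.36 and -0.45 and their intervals lie below 0, while all 5 DHT intervals include 0.

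The signals themselves show the same separation array by array. For Lipe, Pnpla2, Ces1d and Npr3 all 8 female values lay below all 7 male values, whereas 2.83% of the 5686 genes were separated in this way. At matched DHT times the female signal of the brightest probe set was lower at 6 of 6 times for each of the 5 genes. For Lipe, Pnpla2, Ces1d and Npr3 this follows from the separation, so the count adds something for Mgll only. The share of all genes lower at 6 of 6 times was not counted. Of the other probe sets, the second of Ces1d, also without overlap, and the dimmest of Npr3 were lower at 6 of 6 times. The second of Npr3 was lower at 5 of 6 and the dim one of Mgll at 1 of 6. The female to male ratio ran from 0.460 at 18 h to 0.659 at 1 h for Lipe and over 0.543 to 0.672 for Pnpla2. It covered 0.614 to 0.855 for Mgll, 0.363 to 0.798 for Ces1d and 0.185 to 0.654 for Npr3. The ratio of Npr3 was lowest at 3 h, where the female array had its lowest signal, and highest at 18 h.

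**Figure D4:**
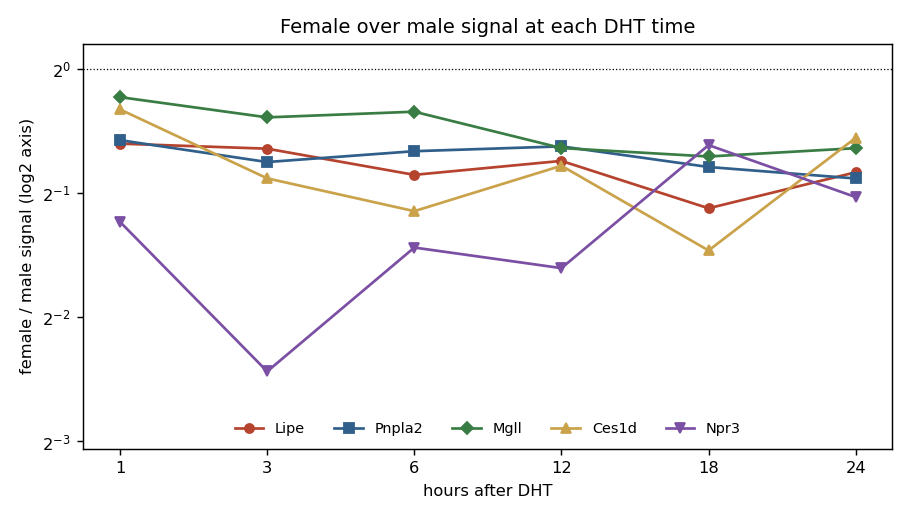
Female over male signal (y axis, log2 scale) at each time after DHT (x axis, hours), 1 female and 1 male array per point, for the brightest probe set of each gene. The dotted line is a ratio of 1, and all 30 points lie below it, with Npr3 at 3 h the lowest at 0.185.

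Other probe sets of the same genes were set beside these in a fit over 10833 probe sets with 15 arrays. The share of all probe sets called in that fit was not counted. The second Ces1d probe set was called lower in females (-0.73, adjusted p = 0.00380). Those of Npr3 had -0.43 (adjusted p = 0.161) for the second and -0.57 (adjusted p = 0.101) for the dimmest, and the dim one of Mgll had 0.17 (adjusted p = 0.705), none of them called.

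Markers of other cells also differed between the sexes with 15 arrays, in a fit where 8.83% of all genes were called higher and 7.76% lower in females. The marker lists were chosen with earlier results of these data known. The summed signal of 15 macrophage genes was 47878 to 60976 in females and 36079 to 45655 in males, with no overlap, and 10 of the 15 were called higher in females and none lower. The sum of 4 brown adipocyte genes was 1777 to 3017 in females and 4085 to 6339.7 in males, again with no overlap. All 4, which were Ucp1, Cidea, Cox7a1 and Cox8b, were called lower in females, with a median of -1.12. On the muscle-rich array the same sum was higher still, at 12670. Against the mean of the other 7 male arrays, Cox7a1 was 21.0 and Cox8b 3.61 times as high there, but Ucp1 0.0509 and Cidea 0.123 times. Of 18 skeletal muscle genes 7 were called lower in females and none higher, and their sums, 22058 to 54307 in females and 42150.5 to 73212 in males, overlapped. All 13 adipocyte genes had values below 0, with a median of -0.33, and 7 of them were called lower: the hormones leptin (Lep, -1.19) and resistin (Retn, -0.32), the factor Cebpa (-0.33), the glucose transporter Slc2a4 (-0.48), Cidec (-0.86), Dgat1 (-0.52) and Pck1 (-0.65). The other 6 were not called: adiponectin (Adipoq, -0.20), the nuclear receptor Pparg (-0.16), Lpl (-0.18), Cd36 (-0.47), the fatty acid carrier Fabp4 (-0.19) and the desaturase Scd1 (-0.20), with adjusted p = 0.0510 to 0.524. Exocrine pancreas genes, which summed to 80936 on the female array at 12 h and to no more than 7498 on any other array, held no call. The part of these cells in the sex difference of the lipolysis genes was not tested.

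DHT left no called change in any of the 5 genes. Over all times against vehicle, with 15 arrays, the log2 difference was -0.06 ± 0.11 for Lipe, -0.05 ± 0.07 for Pnpla2, -0.18 ± 0.12 for Mgll, -0.05 ± 0.17 for Ces1d and 0.41 ± 0.20 for Npr3 (limma, adjusted p = 0.998 for each). None was called, against 0.0879% of genes, and none had an unadjusted p under 0.05. The 95% interval allowed a change between -0.31 and 0.18 for Lipe, between -0.21 and 0.10 for Pnpla2, between -0.43 and 0.08 for Mgll, between -0.41 and 0.31 for Ces1d and between -0.03 and 0.85 for Npr3. With all 16 arrays the values were 1.09 for Lipe, 0.59 for Pnpla2, 0.56 for Mgll, 1.28 for Ces1d and 1.34 for Npr3, still without a call (adjusted p = 0.630 to 0.635; 0.0703% of genes called), and 1 of the 5, Npr3, had an unadjusted p under 0.05. The muscle-rich array, 1 of the 4 vehicle arrays, moved all 5 values upward. In the fit over 10833 probe sets with 15 arrays, DHT over all times gave 0.13 for the second and -0.02 for the dimmest Npr3 probe set. It gave 0.61 for the dim Mgll probe set and -0.02 for the second Ces1d one, none of them called (limma, adjusted p = 0.999).

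Single times gave no call either. In the 30 gene and time pairs, none was called with 16 arrays (0.0528% of genes called at any time) or with 15 (0.123%), and at an unadjusted p under 0.05 there were 0 pairs with 16 arrays and 3 with 15. Those 3 were Npr3 at 18 h (0.78 ± 0.28) and 24 h (0.79 ± 0.28) and Pnpla2 at 1 h (-0.24 ± 0.10), whose adjusted p with 15 arrays was 0.706, 0.999 and 0.998. They were picked here after their values were seen. The F test over the 6 times called none of the 5 with 16 arrays (adjusted p = 0.9997; 0.0528% of genes) or with 15 (adjusted p = 0.989; 0.0879%), and of the 5 only Pnpla2 had an unadjusted p under 0.05 with 15 arrays.

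None of the 5 genes was called between late and early DHT times. The log2 difference of 12, 18 and 24 h against 1, 3 and 6 h was -0.14 for Lipe, -0.04 for Pnpla2, -0.08 for Mgll, -0.02 for Ces1d and 0.27 for Npr3. The adjusted p was 0.9996 with 16 arrays (0% of genes called) and 0.774 to 0.979 with 15 (0.0352% of genes called), and none of the 5 had an unadjusted p under 0.05. Npr3 averaged 1755 ± 743 on the late arrays and 1574 ± 920.3 on the early ones (SD, n = 6 each). Both sets hold arrays of both sexes, so these SDs include the sex difference, which the fit takes out with its sex term. The mean log2 level of the antisense control probe sets was 7.12 to 7.995 on late arrays and 6.13 to 7.65 on early ones, and with that level as a covariate the sign of the Npr3 difference turned, to -0.55 with 16 arrays and -0.08 with 15.

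The response to DHT was not called different between females and males. With 15 arrays the female response minus the male one lay between -0.19 and 0.41 over the 5 genes (adjusted p = 0.9996; 0% of genes called). With 16 arrays it lay between -2.36 and -1.30 (adjusted p = 0.594; 0% of genes). Within females DHT against vehicle gave -0.24 for Mgll and 0.39 for Npr3 at the ends, with no call (0% of genes with 16 arrays, 0.0528% with 15). Within males it gave 1.24 to 2.46 with 16 arrays, where all 5 had an unadjusted p under 0.05 and none a call (adjusted p = 0.221 to 0.230; 0.0176% of genes). Without the muscle-rich array it gave -0.31 to 0.44, with no unadjusted p under 0.05 and no call (0% of genes). That value rests on 1 male vehicle array, which the fit assumes to vary like the other groups, so it says little about whether males responded. Without male vehicle replicate 1 instead, when the muscle-rich array is the only male vehicle array, DHT against vehicle in males gave 2.51 to 5.24. The female response minus the male one was then -5.14 to -2.57. Both rest on that 1 male vehicle array, and the share of all genes called in this fit was not counted.

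The wider pathway was read from a list of 73 other genes of lipolysis and its hormonal control, of which 49 had a probe set and 39 were tested. Of those tested, Lpl, Cd36, Fabp4, Cidec, Dgat1, Pck1 and Cidea are also in the marker lists above, so the pathway counts overlap the marker counts. With 15 arrays 13 of the 39 were called lower in females and 2 higher, with a median of -0.18, where 7.76% of all genes were called lower and 8.83% higher. The pathway list, too, was chosen with earlier results of these data known. The count with 16 arrays was 1 lower, Akt2, an insulin-signalling kinase (-0.54, adjusted p = 0.0189), and none higher, where 1.13% of all genes were called lower and 4.63% higher. Of the droplet coat and lipase cofactors 5 of 8 were lower: the perilipin Plin4 (-0.98), Cidec (-0.86) and Cidea (-1.53), which help droplets fuse and enlarge, the coat protein Plin2 (-0.23), and G0s2, an inhibitor of adipose triglyceride lipase (-0.39). Abhd5, that lipase's co-activator, had -0.05 and was not called.

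Among the genes that handle the released glycerol and fatty acids 4 of 5 were lower in females with 15 arrays, against the 7.76% of all genes that also holds for the branches below. They were the glycerol channel Aqp7 (-0.81), the fatty acid transporter Slc27a1 (-0.64), Pck1 of glyceroneogenesis (-0.65) and Dgat1, which remakes triglyceride (-0.52). Cd36, a fatty acid receptor, had -0.47 and missed the threshold (adjusted p = 0.0510). In the cyclic AMP branch 3 of 14 were lower: the inhibitory G protein subunit Gnai1 (-0.72), the stimulatory subunit Gnas (-0.29) and the protein kinase A subunit Prkaca (-0.38). None of the 4 stimulatory receptors tested was called, nor the inhibitory prostaglandin receptor Ptger3 (-0.11), nor either natriuretic peptide gene tested (Nppa -0.53, Nppb 0.01). The insulin branch split, with Akt2 lower (-0.61) and Akt1 higher (0.40), and the lysosomal lipase Lipa was higher (0.84, adjusted p = 0.0117). Lpl, which releases fatty acids from circulating lipoproteins, had -0.18 and was not called (adjusted p = 0.0894).

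**Figure D5:**
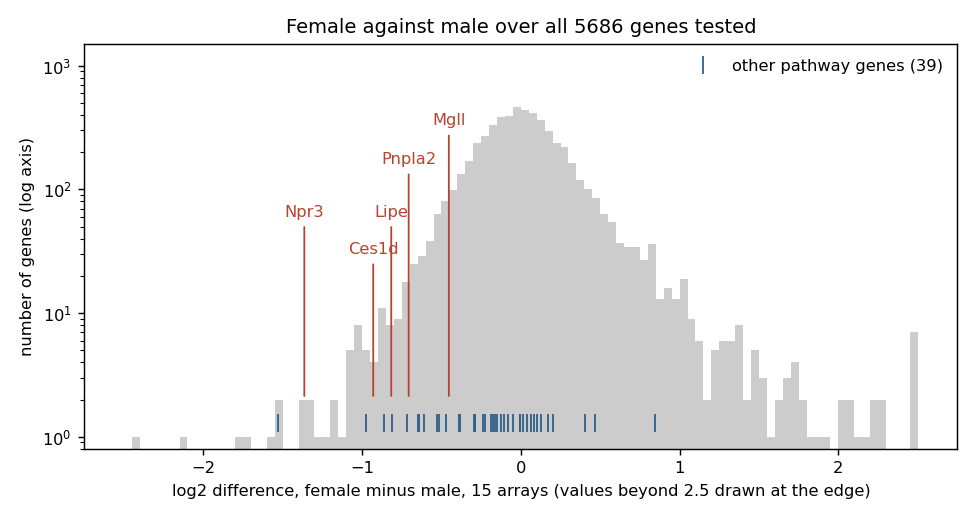
Number of genes (y axis, log scale) by log2 difference, female minus male, over 15 arrays (x axis), for all 5686 genes tested. Arrows mark the 5 lipolysis genes, between -1.36 for Npr3 and -0.45 for Mgll, and blue ticks the 39 other pathway genes, between -1.53 for Cidea and 0.84 for Lipa.

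The pathway list held no call for DHT over all times, for late against early times or for the sex difference of the response, with 16 or with 15 arrays. For DHT over all times with 15 arrays, the smallest p-values were those of Plin4 (0.30, unadjusted p = 0.00349) and the melanocortin receptor Mc5r (0.42, unadjusted p = 0.0353) among higher values, and of Akt2 (-0.30, unadjusted p = 0.00623) and Slc27a1 (-0.37, unadjusted p = 0.0310) among lower ones. For late against early times they were those of the protein kinase A subunit Prkar2a (0.44, unadjusted p = 0.0270) and G0s2 (0.24, unadjusted p = 0.102), and of Prkaca (-0.30, unadjusted p = 0.00940) and Dgat1 (-0.32, unadjusted p = 0.0402). With 16 arrays the genes in those places for DHT were Plin4 (0.92) and Pik3r1 (0.65), and Prkar2a (-0.89) and Pde4b (-0.42), each with adjusted p = 0.630. For late against early they were Mc5r (0.26) and the natriuretic peptide gene Nppb (0.25), and Prkaca (-0.30) and Akt2 (-0.15), each with adjusted p = 0.9996. For female against male they were Lipa (1.06, adjusted p = 0.0546) and Akt1 (0.36, adjusted p = 0.0777), and Akt2 and Cidea (-1.19, adjusted p = 0.0896).

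Across the 15 arrays the profiles of Lipe and Pnpla2 were close to each other. Pearson's r of their log2 signals was 0.953, and it was 0.648 within the 8 female and 0.865 within the 7 male arrays. Lipe and Ces1d had 0.946, with 0.826 within females and 0.700 within males. Npr3 stood apart, with 0.721 against Lipe over 15 arrays but -0.426 within females and 0.133 within males. The arrays of a sex share its level, so a correlation over both sexes holds the sex difference itself.

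Among the other 5685 genes, the profile nearest to Lipe was that of Uqcr11, a respiratory chain subunit (r = 0.975 over 15 arrays, 0.244 over 16), followed by Sod3, an extracellular superoxide dismutase (0.954), and Pnpla2. For Pnpla2 the nearest were Tspo, a protein of the outer mitochondrial membrane (0.965), Lipe, and the histone gene H3c14 (0.952). For Mgll they were the calpain subunit Capns1 (0.929), the acid phosphatase Acp5 (0.911) and the mitochondrial carrier Slc25a39 (0.903). For Ces1d they were the ATP synthase subunit Atp5l (0.950 over 15 arrays, -0.235 over 16), Lipe, and Uqcr11 (0.935). For Npr3 they were the kinase Prkd1 (0.924), the complement regulator Cd59a (0.900) and Bscl2, the seipin of lipid droplets (0.871). Over all 16 arrays r lay at 0.838 or above for Sod3, Tspo, Capns1, Acp5, Slc25a39, Prkd1, Cd59a and Bscl2 with their own member and was 0.742 for H3c14. Within females r for these genes ran from 0.502 for Tspo to 0.910 for Slc25a39. Within males, without the muscle-rich array, it ran from 0.347 for Bscl2 to 0.931 for Capns1. These ranges leave out Uqcr11 and Atp5l. With Lipe, Uqcr11 had 0.956 within females and 0.688 within males, and with Ces1d it had 0.842 and 0.57. Atp5l had 0.816 within females and 0.967 within males with Ces1d.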

How the data were processed

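Signals of 12488 probe sets on 16 single-colour arrays were used as deposited. They are linear intensity values that the authors made with MAS5, per the submitters' processing notes, which were given without its version. The deposited intensity values had a mean of 500 on every array after trimming 2% at each end, so levels are relative to the whole array and low signals hold more background. The number of arrays limits the precision.

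Genes were named from the platform annotation, for probe sets with 1 symbol (10833), and each of 8251 genes took its brightest probe set by mean log2. Genes under the 40th percentile, a signal of 116.03, were left out, which left 5686. limma (version 3.58.1, R 4.3.3) was fitted to log2(signal + 16), so fold changes of dim genes are understated, with sex and time as factors and eBayes with a trend (8 residual degrees of freedom with 16 arrays, 7 with 15). A second model added a sex by DHT term, and a fit of the 12 DHT arrays was added after the data were seen, as was each alternative run on 15 arrays. Tests were two-sided, with Benjamini-Hochberg adjustment across all 5686 genes and calls made at 0.05. The code was tested on simulated data for female against male with 15 arrays only. It called 46 of 100 genes given a log2 difference of 0.5 and 96 of 100 given 1, with 4 false calls. Changes after DHT were not simulated. Replicate numbers follow the accession order and pair nothing.

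The members, the pathway list and the marker lists were chosen with earlier results of these data known. Named were all members with every probe set, pathway genes past the threshold in any contrast, the 2 with the smallest p each way for DHT, late against early and female against male, and each member's 3 nearest genes by r. The lists are coat and cofactors, lipases, stimulatory and inhibitory receptors, cyclic AMP, natriuretic peptides, insulin and the fate of fatty acids, and markers of adipocytes, skeletal muscle, macrophages, exocrine pancreas, brown adipocytes, endothelium and liver. With 15 arrays, female against male, the remaining lists gave 2 of 7 endothelial genes higher and 0 of 1 liver gene called. Alternatives were 2 other pseudocounts, no filter, quantile normalisation, each probe set on its own, the antisense control level as a covariate, the 6 times as 1 DHT group, eBayes without a trend, and each array left out.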

Additional observations from a re-analysis of the deposited data

Results flagged for a closer look

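Male vehicle replicate 2 lay far below the other 7 male arrays, by Dixon's criterion for single outlying values among 8, in 6 of the 9 probe sets. Its signal was 464 for Lipe, where the next lowest male array had 9328, and 4268 for Pnpla2, against 20303. It was 597 for the brighter Mgll probe set, against 3530.2, and 117 for the brightest Npr3 probe set, against 1719.6. The Ces1d probe sets read 237, against 6471, and 619.8, against 6396. By chance this criterion marks about 1 group in 20, and 45 groups were examined. All 6 marks fell on this same array, so they are not independent of each other and that rate does not gauge their number. The share of all probe sets that the criterion would mark on this array was not counted. On the same array the skeletal muscle genes summed to 372540 and the adipocyte genes to 23338. The part of the tissue's makeup in these low signals was not tested.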

How the results depend on the processing

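With 15 arrays, all 5 genes were called lower in females under each of the 8 alternatives that leave out no array, in the 12 DHT arrays and with each further array left out. The differences then lay between -1.03 and -0.85 for Ces1d, -0.85 and -0.75 for Lipe, -0.50 and -0.39 for Mgll, -1.48 and -1.20 for Npr3, and -0.73 and -0.59 for Pnpla2. With 16 arrays the count of members called between females and males was 5 in the DHT arrays alone, and 0 to 5 with 1 array left out, 5 being without male vehicle replicate 2. No count of members called for DHT over all times, for single times or for late against early times moved from 0 under any alternative. The count for the sex difference of the response moved from 0 only without male vehicle replicate 1, when the muscle-rich array is the only male vehicle array. Calls for DHT in males then appeared as well. That fit rests on 1 male vehicle array, and the share of all genes called in it was not counted. The sex difference of the response could not be fitted with both male vehicle arrays left out.

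Signs turned as follows. With the antisense control level as a covariate, late against early was -0.55 (16 arrays) and -0.080 (15) for Npr3 and 0.088 (15) for Mgll, and DHT in females was 0.12 for Lipe and 0.014 for Pnpla2. These 5 values were not called, and the cause was not tested. With 16 arrays and 1 left out in turn, DHT over all times ran over -0.064 to 1.64 for Lipe, -0.054 to 0.87 for Pnpla2, -0.18 to 0.87 for Mgll and -0.050 to 1.97 for Ces1d, the low end always without male vehicle replicate 2. Late against early ran over -0.31 to 0.027 for Lipe, -0.13 to 0.056 for Pnpla2, -0.20 to 0.038 for Mgll, -0.25 to 0.21 for Ces1d and -0.011 to 0.56 for Npr3. Female against male, called at the low end only, ran over -0.82 to 0.034 for Lipe, -0.45 to 0.067 for Mgll and -0.93 to 0.078 for Ces1d. The sex difference of the response, called at the low end, ran over -4.57 to 0.11 for Lipe and -5.14 to 0.41 for Ces1d. DHT in females ran over -0.29 to 0.24 for Lipe and -0.17 to 0.37 for Ces1d. DHT in males, called at the high end, ran over -0.13 to 4.54 for Lipe, -0.034 to 2.51 for Pnpla2, -0.058 to 2.80 for Mgll and -0.31 to 5.24 for Ces1d.

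With 15 arrays and 1 further array left out, DHT over all times ran over -0.21 to 0.055 for Lipe and -0.24 to 0.10 for Ces1d, and late against early over -0.14 to 0.10 for Ces1d. The sex difference of the response then ran over -0.16 to 0.38 for Lipe, -0.43 to 0.056 for Mgll, -0.21 to 0.15 for Npr3 and -0.071 to 0.0067 for Pnpla2. No paired analysis was possible because the labels give the groups no shared replicate numbers. Each DHT time had 1 array per sex, so a change at a single time in a single sex has no replicate.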
